A study of Mus musculus with 8 samples.

Results

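Cholesterol synthesis, uptake and efflux were followed through 36 named genes in liver RNA of 4 groups of mice. The genes were taken by name, as every probe whose gene name in the files, current or older, is one of them. They had 69 of the 41174 probes on the array, and 67 of these were well above background on both arrays of at least 1 group. All 36 genes passed that filter, out of 18153 genes tested, and the brightest probe stood for each gene. The probe used was above background on all 8 arrays for every one of them.

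All animals were C57BL/6 mice, 6 months of age and labelled female. Dicer1 knockout (KO) mice were Albumin-Cre;Dicer1loxP/loxP, in which the albumin promoter drives Cre and so removes floxed Dicer1 in cells that express albumin, chiefly hepatocytes. Their littermates with the Dicer1loxP/loxP alleles and no Cre served as wild type (WT), so all 4 groups carried the floxed alleles. Each genotype received, in a single injection of 2 ml/kg, either dimethylsulfoxide (vehicle) or the DNA-alkylating agent N-ethyl-N-nitrosourea (ENU, 120 mg/kg), and ENU mice were sampled at 15 days, whereas no day is stated for vehicle mice. The labels give neither the number of mice behind an RNA sample nor the position of the deleted exons. Dicer1 read -1.86, -2.51, -4.32 and -4.02 with probe A_51_P333060 in WT vehicle, WT ENU, KO vehicle and KO ENU, and was 1.41-fold and 1.19-fold lower in KO with its other probe. Despite the female label, every one of the 8 arrays measured 4 Y-linked genes well above background.

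Levels are log2 of the processed signal over the array's 75th percentile signal, given in the order WT vehicle, WT ENU, KO vehicle and KO ENU. The 2 arrays of a group differed about as much as repeated spots on 1 array did (median standardised difference 0.662 to 0.854, against 0.688 for spot noise alone and 11.1 to 26.8 between groups) and were averaged as 1 RNA sample. The 36 genes differed between arrays a and b by 0.0301 in the median and by 0.19 at most. A single comparison of 2 groups therefore has no replicate check, and higher and lower mark a difference of at least 2-fold (1 log2 unit) there unless a smaller value is printed. Rose and fell are kept for the limma fit over the 4 RNA samples, which has a genotype and a treatment term, at a Benjamini-Hochberg adjusted p under 0.05 over all genes. Its 1 residual degree of freedom is the dependence of the ENU difference on genotype, so a response confined to 1 genotype counts there as noise. The fit also draws each gene's variance toward a value shared by all genes tested. Its SE and p-values therefore rest on the spread between these 4 RNA samples and on that shared value, and not on replicates within a group. Treatment coincided with the slide, since each slide held the arrays of a single treatment, and genotype coincided with the position on the slide. The extraction program graded the 4 vehicle arrays for evaluation and the 4 ENU arrays as within range, and the part of this grade in the ENU differences was not tested. Neither slide and ENU nor position and genotype can therefore be told apart.

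Cells make cholesterol from acetyl-CoA through mevalonate and squalene, and the liver is a main site of this synthesis. When sterols in the endoplasmic reticulum are low, Scap carries the transcription factor SREBP2 to the Golgi for cleavage, and the released factor acts with NF-Y and Sp1 on the promoters of the synthesis genes; Insig proteins hold Scap back when sterols are high. Excess cholesterol is esterified by Soat enzymes, and oxysterols made from it activate the LXR receptors (Nr1h2, Nr1h3), which act on the Abc transporters that export sterol to lipoproteins and bile.

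The promoters below, the 250 bases before the RefSeq gene start (GRCm38.p6), belong to the genes at the ends of the results that follow. With the probe used for each gene, Hmgcs1 had the widest gap between its ENU differences in WT and KO (2.64 and -0.21). This ranking covers the genes whose differences were of opposite sign. Nsdhl and Tm7sf2 fell most in KO, and Soat1 rose most. Each is written 5′ to 3′ along the gene's own strand, and capitals mark the letters CCAAT (the NF-Y box), GGGCGG (the Sp1 box) and TCACNCCAC (a sterol regulatory element), searched on both strands, so that ATTGG and CCGCCC are matches on the other strand.
Hmgcs1 (chr13:119690101-119690350, plus strand): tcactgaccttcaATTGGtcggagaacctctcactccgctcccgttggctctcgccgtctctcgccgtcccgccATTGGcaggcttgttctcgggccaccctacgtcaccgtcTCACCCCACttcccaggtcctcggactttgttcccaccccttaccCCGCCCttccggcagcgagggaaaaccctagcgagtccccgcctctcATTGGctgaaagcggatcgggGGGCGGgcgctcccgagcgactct
Nsdhl (chrX:72918271-72918520, plus strand): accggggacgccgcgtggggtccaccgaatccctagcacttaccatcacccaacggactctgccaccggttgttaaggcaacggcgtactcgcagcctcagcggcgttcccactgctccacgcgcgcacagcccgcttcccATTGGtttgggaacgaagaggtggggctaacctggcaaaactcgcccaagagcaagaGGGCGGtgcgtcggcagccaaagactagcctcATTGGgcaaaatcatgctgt
Tm7sf2 (chr19:6067851-6068100, minus strand): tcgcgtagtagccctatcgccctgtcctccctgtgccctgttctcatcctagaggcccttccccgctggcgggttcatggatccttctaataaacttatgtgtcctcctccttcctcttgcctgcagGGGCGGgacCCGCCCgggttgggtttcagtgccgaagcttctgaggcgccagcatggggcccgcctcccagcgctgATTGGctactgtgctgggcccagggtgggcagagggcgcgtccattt
Soat1 (chr1:156474329-156474578, minus strand): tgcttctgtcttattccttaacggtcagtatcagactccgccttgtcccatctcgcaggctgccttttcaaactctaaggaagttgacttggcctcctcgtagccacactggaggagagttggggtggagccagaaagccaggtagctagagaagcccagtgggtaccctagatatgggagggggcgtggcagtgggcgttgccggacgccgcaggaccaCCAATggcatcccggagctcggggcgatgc
The element at 137 to 129 bases before the Hmgcs1 start was the only match to TCACNCCAC in the 19 windows held for synthesis genes (1 of 19, or 5.26%), while 1.01% of the 14606 windows of the genes tested held it. CCAAT was present in 15 of these 19 windows, which belong to 16 genes (78.9%), in 41.2% of the 17 windows of other members and in 34.7% of the windows of the genes tested. GGGCGG was present in 78.9%, 47.1% and 53.2%, and the E-box CACGTG, read by other factors as well, in 15.8%, 17.6% and 7.83%. No search letters overlapped each other in the printed windows. Hmgcs1 held CCAAT 3 times and Soat1 held it at 30 to 26 bases before its start with no match to GGGCGG. A match is a description of the letters and not a binding site, and RefSeq windows were held for 28 of the 36 genes.

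Most synthesis genes stood higher after ENU in WT liver, and few did in KO liver. Of the 19 enzymes from acetyl-CoA to cholesterol, 14 were at least 2-fold higher in WT ENU than in WT vehicle and 0 were lower, and their median difference was 1.63. In KO, 1 was higher (Mvk) and 1 was lower (Hsd17b7), with a median of -0.02. Over all genes tested, 7.13% were higher and 5.58% lower in WT, 4.32% and 5.48% in KO, and the medians were -0.04 and -0.06. Over all 36 genes, 15 were higher and 1 lower in WT, and 4 higher and 2 lower in KO. Beside the enzymes these were Insig1 (higher) and Npc1 (lower) in WT, and Soat2, Abcg5 and Abcg8 (higher) and Srebf2 (lower) in KO. The difference between the genotypes' ENU differences leaves no residual over 4 samples and was not tested, and 0 of the 36 genes were past 2-fold in opposite directions in WT and KO.

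**Figure D1:**
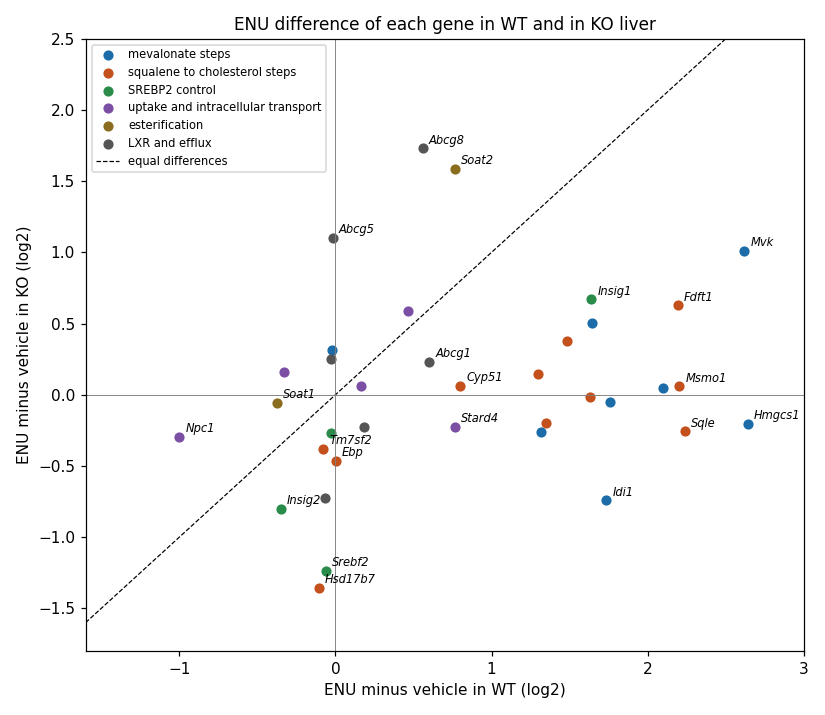
ENU minus vehicle difference (log2) of each of the 36 genes in WT (horizontal axis) and in KO (vertical axis), coloured by role; each point is 1 gene, each difference sets 1 RNA sample against 1, and the dashed line marks equal differences. Most synthesis genes lie to the right of 1 on the WT axis and near 0 on the KO axis, with Mvk at 2.62 and 1.01, Hmgcs1 at 2.64 and -0.21, and Hsd17b7 at -0.11 and -1.36.

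Among the 8 mevalonate steps, 7 were higher after ENU in WT, with a median of 1.75, and 1 in KO, with a median near 0. Hmgcs1, which makes the substrate from which mevalonate is formed, read 3.33 and 3.29 on the arrays of WT vehicle, 5.94 and 5.96 in WT ENU, 4.71 and 4.72 in KO vehicle and 4.52 and 4.51 in KO ENU. WT vehicle was thus the lowest and WT ENU the highest sample, with both KO samples between them, so that the range of WT enclosed that of KO. Hmgcs1 was 6.24-fold higher after ENU in WT and 1.15-fold lower in KO. Hmgcs1 was 2.65-fold higher in KO than in WT on vehicle and 2.71-fold lower in KO after ENU, the only one of the 36 genes past 2-fold in opposite directions on vehicle and after ENU. The files place its probes on sequence not assigned to a chromosome in mm7, and those of Idi1 on chromosome 2, while RefSeq has both genes on chromosome 13. The other Hmgcs1 probes, each above background on 1 of 2 WT vehicle arrays, gave 1.63 and 3.34 for the ENU difference in WT, and -0.84 and -1.40 for KO minus WT after ENU, in place of 2.64 and -1.44. With quantile normalization KO minus WT after ENU was -0.80, short of 2-fold.

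The other early enzymes kept the same order after ENU, with WT above KO. Acat2, the cytosolic thiolase that joins 2 acetyl-CoA, read 4.95, 6.27, 5.15 and 4.89, so that WT ENU stood alone above 3 like samples. It has a near copy, Acat3, from which the probe may not separate it, and with quantile normalization KO minus WT after ENU was -0.68 in place of -1.38. On vehicle that difference was 0.82 in place of 0.20, so the likeness of the 3 samples depended on the scaling. Mvk, mevalonate kinase, read -2.04, 0.58, -1.89 and -0.88 and was 6.15-fold higher after ENU in WT and 2.01-fold higher in KO. The ENU difference of 1.01 in KO lay at the 2-fold mark: it was 0.99 without KO vehicle array a, 0.99 without KO ENU array b, 0.91 as the mean of all probes and 0.80 with normexp background correction. Pmvk, which adds the second phosphate to mevalonate, read 3.03, 4.79, 2.01 and 1.96, with both KO samples below both WT samples. Mvd, which makes isopentenyl diphosphate, read -0.06, 2.04, 0.47 and 0.52, and Idi1, which isomerises it, read 3.02, 4.76, 3.20 and 2.46. KO minus WT after ENU was -2.83 for Pmvk (7.10-fold lower), -1.53 for Mvd and -2.30 for Idi1.

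Fdps and Ggps1 make the prenyl diphosphates at the branch between sterols and protein prenylation, and their levels followed different patterns. Fdps, farnesyl diphosphate synthase, read 2.78, 4.42, 1.52 and 2.02, with the probe used, so that both KO samples lay below both WT samples and ENU above vehicle in each genotype. Ggps1, which extends the chain for prenylation, read -0.46, -0.48, -0.39 and -0.07 and was the only synthesis gene not lower in KO than in WT after ENU. Its widest difference was 0.40, in KO minus WT after ENU. The second Fdps probe gave 0.24 for KO minus WT on vehicle, against -1.26 with the probe used, and -2.99 after ENU, against -2.40. It also turned the ENU difference in KO, to -1.94 from 0.50, while in WT it gave 1.30, and it was above background on all 8 arrays.

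Of the 11 steps from squalene to cholesterol, 7 were higher after ENU in WT (median 1.35), and in KO 0 were higher and 1 was lower (median -0.02). Fdft1, squalene synthase, read 1.54, 3.74, 1.61 and 2.24, Sqle, squalene epoxidase, read 1.47, 3.71, 2.45 and 2.20, and Msmo1, the methylsterol oxidase that takes off the methyl groups, read 3.99, 6.19, 3.65 and 3.71. WT ENU was the highest sample for each of them, 4.57-fold, 4.72-fold and 4.60-fold above WT vehicle. The second Fdft1 probe, above background on 1 of 2 WT vehicle arrays, gave an ENU difference of 0.98 in WT, against 2.19, and the mean of both was 1.59. Lss, which closes the sterol rings, read -0.61, 1.02, -0.08 and -0.10. Nsdhl, a sterol dehydrogenase of demethylation, read 1.59, 3.08, 0.09 and 0.47, and Sc5d, the sterol desaturase, read 4.84, 6.14, 4.30 and 4.45. Dhcr7, the reductase that yields cholesterol, read 3.86, 5.21, 3.99 and 3.79. All 4 had WT ENU as the highest sample, and only for Nsdhl and Sc5d were both KO samples below both WT samples with the probe used. The Nsdhl probe A_51_P146701, above background on all 8 arrays, read -2.55, -0.34, -1.64 and -3.90. It put KO above WT on vehicle, at 0.92 in place of -1.50, and turned the ENU difference in KO to -2.27 from 0.38, while the remaining Nsdhl probes kept the direction of the probe used.

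4 enzymes of the late pathway did not pass 2-fold after ENU in WT with the probe used. Cyp51, the lanosterol demethylase, read 0.52, 1.32, -0.46 and -0.40, an ENU difference of 0.80 in WT and 0.06 in KO. Its probe A_52_P164161, above background on all arrays, gave 1.20 in WT, past 2-fold, and -0.28 for KO minus WT on vehicle, in place of -0.98, and the third gave 0.77 and -0.71. Tm7sf2, a sterol reductase, read 6.39, 6.31, 4.45 and 4.07, and Ebp, the sterol isomerase, read 7.27, 7.28, 6.19 and 5.73. For both, the 2 WT samples were alike and both KO samples lay below them. Hsd17b7, a ketosteroid reductase of the pathway, read 4.28, 4.17, 3.71 and 2.35, with KO ENU the lowest sample, 2.56-fold below KO vehicle.

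**Figure D2:**
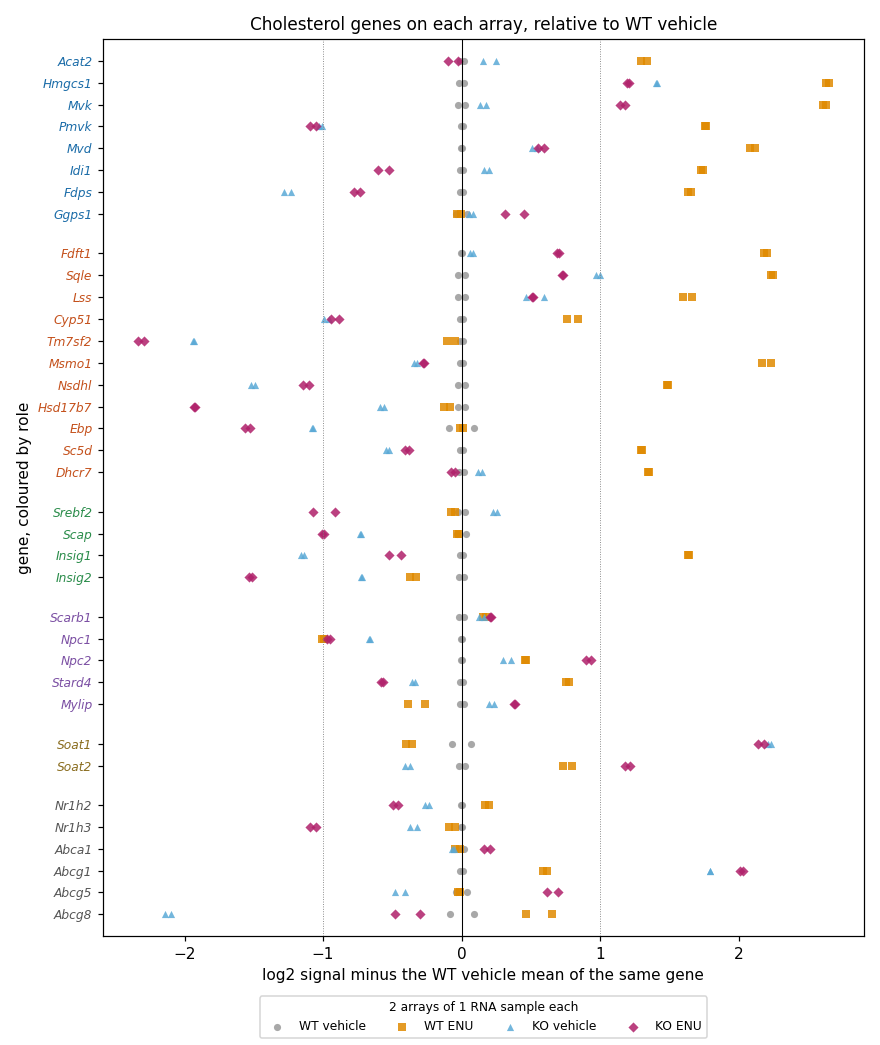
Level of each gene on each of the 8 arrays (log2 signal, with the WT vehicle mean of the same gene set to 0), coloured and shaped by group, with genes ordered and coloured by role; dotted lines mark 2-fold. The 2 arrays of a group lie within 0.19 of each other, and WT ENU stands to the right of the other groups for most enzymes of synthesis, while Soat1 and Abcg1 stand to the right in both KO groups.

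KO livers held less of most synthesis mRNAs than WT livers after ENU, and of few on vehicle. After ENU, 18 of the 19 enzymes were at least 2-fold lower in KO and 0 were higher (median -1.55), while on vehicle 5 were lower and 1 was higher (median 0.07). Over all 36 genes, 22 were lower and 2 higher after ENU, against 14.2% lower and 16.3% higher of all genes, and 7 were lower and 3 higher on vehicle, against 11.1% and 17.3%. The median over all genes was -0.10 after ENU and -0.14 on vehicle. With median scaling those medians were -0.28 and -0.37, and with quantile normalization -0.02 and -0.05. KO minus WT after ENU and the ENU difference in WT share the WT ENU sample, so these counts are not independent of each other. The 5 enzymes lower in KO on vehicle were Pmvk, Fdps, Tm7sf2, Nsdhl and Ebp, 2.03-fold, 2.39-fold, 3.83-fold, 2.84-fold and 2.11-fold. With quantile normalization the vehicle differences of Pmvk, Fdps and Ebp were -0.72, -1.0 and -0.32, Ebp read -0.99 without WT vehicle array a, and as the mean of all probes Fdps and Nsdhl read -0.51 and -0.87. After ENU, quantile normalization brought Ebp to -0.81, Dhcr7 to -0.86, Sc5d to -1.07 and Tm7sf2 to -1.63, from -1.55, -1.41, -1.69 and -2.24, and it brought Tm7sf2 on vehicle to -1.25.

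Over both treatments 9 of the 36 genes fell in KO and 2 rose, while 15.3% of all genes fell and 16.9% rose. Of the enzymes, 5 fell and 0 rose. Tm7sf2 fell by 2.09 ± 0.196 (SE over 4 RNA samples; limma adjusted p = 0.012), Nsdhl by 2.06 ± 0.333 (limma adjusted p = 0.023), Fdps by 1.83 ± 0.341 (limma adjusted p = 0.029), Cyp51 by 1.35 ± 0.260 (limma adjusted p = 0.031) and Ebp by 1.31 ± 0.216 (limma adjusted p = 0.024). With the probe used, each of the 5 was below WT under both treatments, while 1 other probe of Nsdhl (0.92) and 1 of Fdps (0.24) put KO above WT on vehicle. Pmvk, at -1.92 ± 0.492, missed the threshold (limma adjusted p = 0.054, and 0.0495 without KO vehicle array a), and so did Hsd17b7 (-1.20, limma adjusted p = 0.076) and Sc5d (-1.11, limma adjusted p = 0.078). As the mean of all probes, Nsdhl, Fdps and Cyp51 no longer passed (limma adjusted p = 0.058, 0.098 and 0.051), and Ebp no longer passed with quantile normalization (limma adjusted p = 0.13). Hmgcs1, whose differences were opposite under the 2 treatments, averaged -0.02 ± 0.742 (limma adjusted p = 0.989). The probes used lie at chr19:5957688-5957747 for Tm7sf2, chrX:68344352-68344414 for Nsdhl, chr3:89208691-89208831 for Fdps, chr5:4089242-4089301 for Cyp51 and chrX:6618487-6618546 for Ebp, as the files place them on mm7 (NCBI35).

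**Figure D3:**
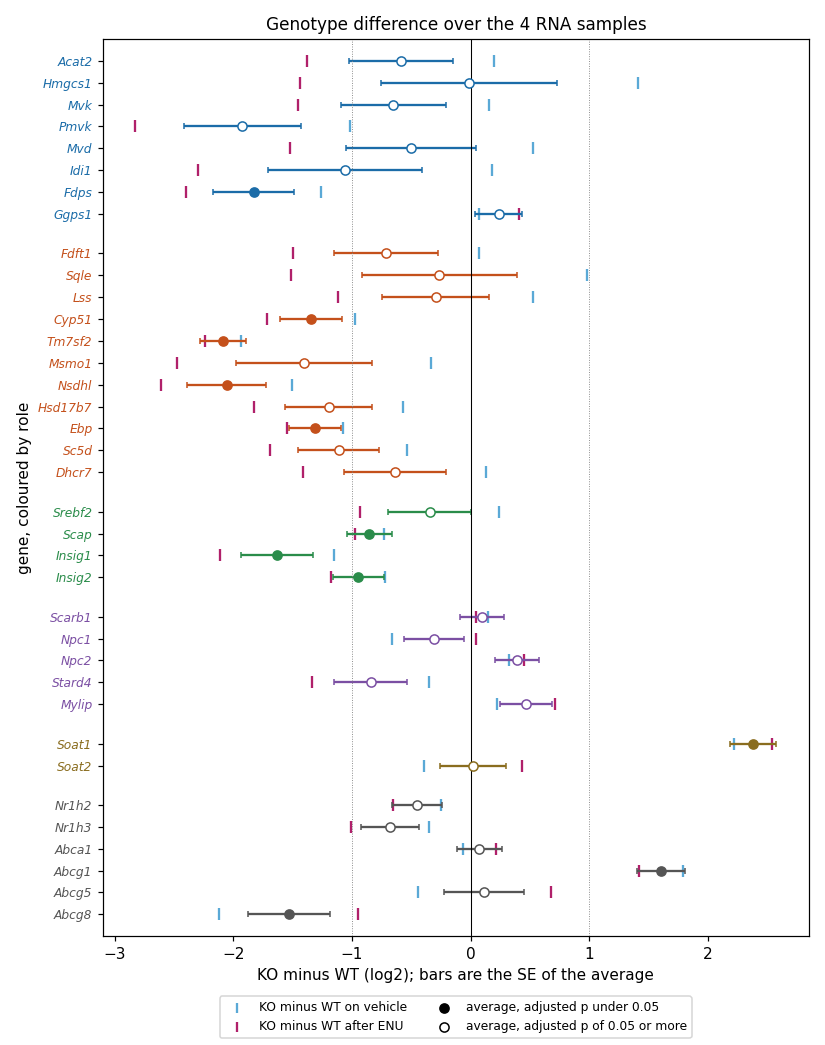
KO minus WT difference (log2) of each gene on vehicle and after ENU (ticks), and their average with its SE from the limma fit over 4 RNA samples (circles, filled at an adjusted p under 0.05), with genes ordered and coloured by role; dotted lines mark 2-fold. The ticks lie close together for Tm7sf2, Ebp, Soat1 and Abcg1 and far apart for Hmgcs1, at 1.41 and -1.44, whose average is near 0.

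For ENU over both genotypes 0 of the 36 genes and 0 of all genes rose or fell by limma (0% of all genes in each direction; lowest adjusted p 0.159 over all genes). At an unadjusted p under 0.05, 8 of the 36 genes were higher and 0 lower, against 1892 higher and 2108 lower of the 18153 genes.

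Of the 4 genes that control SREBP2, 3 fell in KO and 0 rose, against 15.3% and 16.9% of all genes. Insig1, itself a target of SREBP2 that retains Scap, read 0.96, 2.60, -0.19 and 0.48. It followed the enzymes, with WT ENU highest, 3.11-fold above WT vehicle, and both KO samples below both WT samples, and it fell by 1.63 ± 0.304 (SE; limma adjusted p = 0.029). Insig2, the other retention protein, read 5.32, 4.97, 4.60 and 3.80 and fell by 0.95 ± 0.213 (limma adjusted p = 0.042). Scap, the escort itself, read 5.33, 5.31, 4.60 and 4.33 and fell by 0.85 ± 0.191 (limma adjusted p = 0.042). Neither Insig2 nor Scap passed with quantile normalization (limma adjusted p = 0.261 and 0.36) or without the filter on dim probes (limma adjusted p = 0.057 and 0.060). In KO minus WT after ENU, Insig2 was -1.17, and -0.64 with quantile normalization.

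Srebf2, which encodes SREBP2, read 3.35, 3.29, 3.59 and 2.35 with the brightest of its 4 probes, so that KO ENU stood alone below 3 like samples. The average KO difference was -0.35 (limma adjusted p = 0.473). With its 3 probes above background on all 8 arrays the ENU difference was -0.06, 0.16 and -0.03 in WT, and -1.24, -0.55 and -0.44 in KO. KO minus WT after ENU was -0.94, -0.71 and 0.16 with these probes, so the last of them put KO ENU above WT ENU. The fourth, A_52_P302001, was well above background on all 4 ENU arrays and on 0 of 4 vehicle arrays, so it gives no measured ENU difference. As the mean of all probes, which includes it, the ENU difference in KO was -0.32 in place of -1.24.

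**Figure D4:**
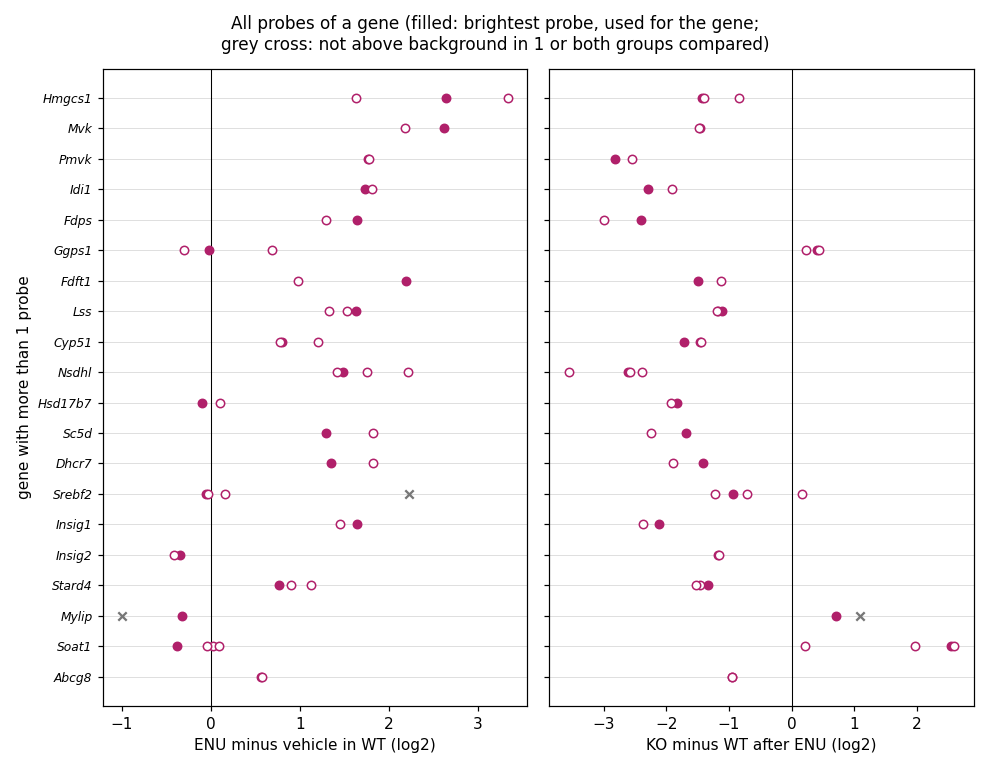
ENU minus vehicle in WT (left, log2) and KO minus WT after ENU (right, log2) for every probe that passed the filter, in the 20 genes with more than 1 such probe; filled circles are the brightest probe, used for the gene, open circles are the others, and grey crosses are probes that both arrays of a compared group left at background. The crosses are 1 probe of Srebf2 and 1 of Mylip on the left and the same Mylip probe on the right, and 1 probe of Soat1 stands at 0.22 on the right, away from the rest of its gene.

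The probes of a gene agreed least for ENU in KO. Of 31 other probes that passed the filter in 20 genes, 18 had the sign of the brightest probe in ENU minus vehicle in KO, 23 in KO minus WT on vehicle, 25 in ENU minus vehicle in WT and 30 in KO minus WT after ENU. These counts include the probes that were not above background in a group compared. Probes more than 1 log2 unit from the brightest belonged to Fdft1, Fdps, Nsdhl and Srebf2 for ENU in KO, to Fdps, Nsdhl and Soat1 for KO minus WT on vehicle, to Fdft1, Hmgcs1 and Srebf2 for ENU in WT, and to Soat1 and Srebf2 for KO minus WT after ENU.

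Of the 5 genes of uptake and intracellular transport, 0 rose or fell in KO, while 16.9% of all genes rose and 15.3% fell. Scarb1, the HDL receptor, read 4.13, 4.29, 4.28 and 4.34, with the 4 samples alike in this scaling. Its average KO difference of 0.10 ran from -0.11 to 0.63 over the alternatives, with a lowest limma adjusted p of 0.074. Npc2, the soluble sterol carrier of the lysosome, read 2.57, 3.03, 2.90 and 3.48. Npc1, its membrane partner, read 1.87, 0.87, 1.21 and 0.91, with WT vehicle highest. Its ENU difference in WT was -1.002, the only one of the 36 at the mark on the low side, and it missed the mark at -0.998 without WT vehicle array b, -0.994 without WT ENU array a, -0.89 with quantile normalization and -0.80 with normexp. Mylip, the ligase that marks lipoprotein receptors for degradation and an LXR target, read 0.56, 0.24, 0.78 and 0.95. Stard4, a cytosolic sterol carrier and SREBP2 target, read 1.83, 2.59, 1.48 and 1.25 and had the order of the enzymes, 2.53-fold lower in KO than in WT after ENU.

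Esterification and efflux held the 2 members that rose in KO. Soat1, the widely expressed enzyme that esterifies cholesterol, read -1.10 and -1.24 on the arrays of WT vehicle, -1.57 and -1.53 in WT ENU, 1.04 and 1.06 in KO vehicle and 1.01 and 0.97 in KO ENU. Every KO array lay above every WT array, by 4.66-fold on vehicle and 5.82-fold after ENU, and the average rise was 2.38 ± 0.198 (SE; limma adjusted p = 0.010). Its probes at chr1:156392448-156392507, chr1:156394882-156394941 and chr1:156391237-156391296 gave 1.85 to 2.22 on vehicle and 1.97 to 2.60 after ENU (the last 2 of these probes were above background on 1 of 2 WT vehicle arrays), while a probe that the files place on chromosome 7 gave 0.56 and 0.22. With that probe in the mean of all probes, KO minus WT after ENU was 1.83 in place of 2.54. Soat2, the enzyme of hepatocytes and enterocytes, read -0.99, -0.23, -1.38 and 0.20 and was 3.01-fold higher after ENU in KO and 1.70-fold in WT.

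Abcg1, which moves cholesterol to HDL, read -0.04, 0.56, 1.75 and 1.98. Both KO samples lay above both WT samples, by 3.46-fold on vehicle and 2.68-fold after ENU, and it rose by 1.61 ± 0.203 (SE; limma adjusted p = 0.016). Abca1, which loads cholesterol on apolipoprotein A-I and is an LXR target like Abcg1, read 3.0, 2.97, 2.93 and 3.18, and its average KO difference of 0.07 had a limma adjusted p of 0.781. The transcripts of both transporters are known targets of miR-33, which Dicer1 releases from a hairpin in an intron of Srebf2 and whose RefSeq mature sequence (GRCm38.p6), with the seed at bases 2 to 8 in capitals, is shown for that reason.
miR-33-5p (chr15:82198127-82198147, plus strand): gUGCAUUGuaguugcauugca
The level of miR-33 itself was not analysed here.

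Abcg5 and Abcg8 encode the partner subunits of the transporter that exports sterols to bile, and they read differently. Abcg5 read 4.58, 4.56, 4.13 and 5.23, with KO ENU 2.15-fold above KO vehicle and the WT samples alike. Abcg8 read -1.07, -0.51, -3.19 and -1.46, with KO vehicle the lowest sample, 4.35-fold below WT vehicle, and KO ENU 3.32-fold above KO vehicle. Its second probe, above background on 1 of 2 KO vehicle arrays, gave -1.32 for KO minus WT on vehicle. With that probe the ENU difference in KO was 0.94, short of 2-fold. Abcg8 fell by 1.54 ± 0.346 (SE; limma adjusted p = 0.042), a call that was lost without WT vehicle array a (limma adjusted p = 0.052) or WT ENU array b (limma adjusted p = 0.061). With normexp its KO minus WT difference on vehicle was -1.46 in place of -2.12, and its ENU difference in KO 1.08 in place of 1.73. Both LXR receptors were lowest in KO ENU: Nr1h2 read 1.69, 1.87, 1.44 and 1.22, and Nr1h3, the LXR of liver, read 4.0, 3.93, 3.65 and 2.93. Nr1h3 lay at the 2-fold mark in KO minus WT after ENU (-1.01), and read -0.98 without WT ENU array b, -0.99 without KO ENU array b, -0.96 with normexp and -0.60 with quantile normalization.

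Markers of other liver cells moved with genotype, while 16.9% of all genes rose and 15.3% fell in KO. Of 12 macrophage markers 7 rose and 0 fell in KO, and the log2 of their summed level was 6.53, 7.24, 7.89 and 8.66. All 8 neutrophil and myeloid progenitor markers (2.20, 2.82, 5.22 and 5.66) and all 7 cholangiocyte markers (2.55, 2.98, 6.01 and 5.97) rose, as did 4 of 8 stellate cell markers (6.22, 6.26, 7.31 and 7.37). The filter asks for only 1 group above background, so a marker high in KO alone can enter through KO. Counts of markers that rose are in part set by this. Elane, for example, read -6.43, -6.48, -4.07 and -3.61. Whether each marker was above background in WT was not worked out. Of 6 T and NK cell markers 3 rose and 1 fell, of 4 B cell markers 1 rose, and of 8 endothelial markers 1 fell. Of 8 measured hepatocyte markers 6 fell and 0 rose, with summed levels of 11.22, 11.23, 10.55 and 10.61. 2 further hepatocyte markers, Tf and Serpina1c, were not among the genes tested, and all other listed markers were. Single hepatocyte markers differed after ENU in both directions, from -0.68 for Tdo2 to 0.70 for Ttr in WT and from -1.45 for Tdo2 to 0.34 for Ttr in KO. Soat1 and Abcg1 are also expressed by macrophages. The part of cell makeup in the KO and the ENU differences was not tested, and in whole liver fewer cells of a type and less RNA per cell cannot be told apart.

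Genes of the same pathway outside the 36 were grouped in 4 lists, whose counts stand beside 16.9% of all genes that rose and 15.3% that fell in KO. In SREBP processing 2 of 7 fell and 0 rose: the average KO difference was lowest for Tmem97, a sterol-regulated membrane protein (-1.05), and highest for Erlin2, part of the complex that degrades sterol-sensing proteins (0.54, not past the threshold). In the isoprenoid branches 0 of 7 measured genes rose or fell (the eighth, Pdss2, was not among the genes tested), from -0.75 for Coq2, which builds ubiquinone, to 0.63 for Fntb, a farnesyltransferase subunit. Among oxysterol genes and other LXR targets 2 of 8 rose and 2 fell. Ch25h, which makes an oxysterol, rose by 1.68, and Cyp27a1, the mitochondrial sterol hydroxylase that also makes one, fell by 2.97. Ch25h was dim, at -4.45, -3.72, -2.33 and -2.48, with arrays of a group up to 0.35 apart. Whether it was above background in WT was not worked out, and a Hmgcs1 probe at -4.29 in WT vehicle was so on 1 of 2 arrays. Among lysosomal genes, sterol carriers and lipoprotein receptors 1 of 10 rose and 1 fell. Vldlr, the VLDL receptor, read -3.10, -2.93, -0.05 and 0.41 and rose by 3.20 ± 0.194 (SE; limma adjusted p = 0.010), so that both KO samples lay far above both WT samples. Stard5, a cytosolic sterol carrier, fell by 1.19.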

How the data were processed

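Liver RNA was measured on 8 one-colour Agilent arrays, 2 per group. The deposited intensity values were, per the file headers, processed signals of Feature Extraction 10.7.1.1, background-corrected by that program; the submitters' processing notes name version 10.5.1. With R 4.3.3 and limma 3.58.1, each array's signals were divided by their 75th percentile and put on the log2 scale, after removal of control and outlier spots, and spots of 1 probe were averaged. RefSeq names were given to 22951 of 41174 probes through their accession, to 6659 through the symbol and to 3109 through an older symbol; for 8455 the name in the file stands. The 75th percentile signal lay between 436 and 442 (WT vehicle), 505 and 525 (WT ENU) or 627 and 681 (KO). Per array, 54.7% to 69.3% of spots were above background and 0 were saturated; the number of arrays limits the precision. Alternatives were quantile and median scaling, normexp (offset 50), no filter, the mean of all probes, the 8 arrays as samples, and leaving out each array. The fit was tested on simulated data over 18153 genes, with 100 genes changed at each size. For the average KO effect it recovered 54% of the 100 changes of 1 log2 unit and 99% of the 100 changes of 2. It also made 64 false calls, and the same count stands for both sizes. Far fewer genes were changed there than were called in the data, where 16.9% rose and 15.3% fell. The false share of the simulation therefore does not carry over to the data. A gene that rose or fell may still be a false call more often than the adjusted p threshold implies. The 36 members, the lists and the rule for named genes (every member, the highest and lowest average KO difference of each other list, and promoters of the members with the largest falls, rises and gaps between ENU differences of opposite sign that the table held) were chosen with earlier results of these data known.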

Additional observations from a re-analysis of the deposited data

Results flagged for a closer look

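The KO minus WT difference of Hmgcs1 was 1.41 on vehicle and -1.44 after ENU, a difference between the treatments of -2.85 log2 units. It was set apart because KO lay above WT in 1 treatment and below it in the other, each by more than 2-fold. Each value sets 1 RNA sample against 1, and the difference was not tested.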

How the results depend on the processing

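Every member past 2-fold kept its direction in all 13 alternatives run: 10 of 10 in KO minus WT on vehicle, 24 of 24 after ENU, 16 of 16 in ENU minus vehicle in WT and 6 of 6 in KO. Past 2-fold in all of them were 6, 18, 15 and 4. Most of the 13 left out 1 array, which changes nothing in a comparison without that array. In the other comparisons the second array of the same RNA sample remained. Removing the filter kept the same brightest probe for each member. A direction could thus turn mainly through the other scalings, normexp and the mean of all probes. The count of members lower in KO on vehicle, 7, was 4 with quantile normalization and 4 with the mean of all probes. The count lower after ENU in WT, 1, was 0 with quantile normalization, 0 with normexp and 0 to 1 when 1 array was left out (0 without WT vehicle array b or WT ENU array a), and the count lower after ENU in KO, 2, was 1 with the mean of all probes. Taking the 8 arrays as samples sets RNA samples against array noise only. In that fit 8 members passed with KO above WT and 26 with KO below it. For ENU, 25 passed with ENU above vehicle and 9 with ENU below it. The share of all genes that passed in that fit was not worked out, so these counts say nothing particular to the members. Over the 4 RNA samples, Pmvk passed with median scaling (limma adjusted p = 0.033), normexp (0.042) and the mean of all probes (0.047), and Hsd17b7, Sc5d and Nr1h3 passed with median scaling (limma adjusted p = 0.042, 0.042 and 0.049). The cause of these changes was not tested. No paired analysis was possible because arrays a and b of each group were averaged to 1 sample; for the same reason the fit with the array letter as a replicate block was not run.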
